A study of Mus musculus with 2 samples.

Results

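The glucocorticoid receptor gene Nr3c1 and the glucocorticoid-induced genes Tsc22d3, Fkbp5, Sgk1 and Zbtb16 were followed through the cell classes of the mouse aorta, with and without diabetes. These 5 genes of 19357 in either matrix were chosen by name with earlier values of these data known, so their levels and ratios by class and group are given as a description, with no test, and support nothing beyond themselves. Aortic cells came from male Apoe-/- mice on C57BL/6, a strain prone to atherosclerosis because it lacks apolipoprotein E, and both groups carried this deletion. Diabetic mice were injected with streptozotocin, which destroys pancreatic beta cells, at 55 mg per kg per day on 5 days from 6 weeks of age, and control mice with citrate vehicle. After 10 weeks of follow-up the labelled age was 17 weeks, and the cells of 4 mice were pooled into 1 droplet library per group, counted at the 3' end of transcripts with unique molecular identifiers (UMIs). No glucocorticoid was given or measured in the labels, so "glucocorticoid-induced" is what is known of these genes and not an observation here.

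Glucocorticoids, corticosterone in the mouse, cross the cell membrane and bind the receptor encoded by Nr3c1, which waits in the cytoplasm in a complex with heat shock protein chaperones. The bound receptor enters the nucleus, binds DNA at palindromic response elements and switches on genes such as Tsc22d3 and Fkbp5, and it represses many inflammatory genes. In the vessel wall, endothelial cells, smooth muscle cells, fibroblasts and macrophages all carry the receptor.

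The authors assigned 3060 control cells and 2524 diabetic cells to 13 classes, and the 7 classes with at least 50 cells in each library were compared. These are endothelial cells (ECs, 366 control and 228 diabetic cells), fibroblasts Fib-1 (386 and 245), Fib-2 (907 and 533) and Fib-3 (117 and 67), macrophages (Mac, 510 and 229) and vascular smooth muscle cells VSMCs-1 (134 and 159) and VSMCs-2 (496 and 856). Among the compared classes, the summed markers of each named type were highest in the classes of that name. The 5 smooth muscle markers summed to between 38006 and 55627 UMIs per 1000000 of the class (CPM) in both smooth muscle classes and to at most 1477 in the other compared classes, and the 5 fibroblast markers to between 14857 and 29342 CPM in the fibroblast classes and at most 1254 elsewhere. Markers of other types were also present. The 4 adipocyte markers summed to 837 CPM in control and 541 CPM in diabetic VSMCs-1, against 1.08 and 22.6 CPM in VSMCs-2. Only 165 of 510 control and 77 of 229 diabetic Mac cells held no T, NK or B cell marker UMI. Annotated cells held 12390769 UMIs in the control library (median 3760 per cell) and 11833577 in the diabetic library (median 4477.5). Both libraries shared 15 cell barcodes, 8 of them among annotated cells. Haemoglobin genes took 0.217% of annotated UMIs in control cells and 1.14% in diabetic ones. By class, the 4 erythroid markers summed to 2441 and 41670 CPM in Fib-1, 125.4 and 7115 in Fib-2, 98.9 and 18017 in Fib-3, 106 and 10285 in VSMCs-2, 17170 and 33438 in VSMCs-1, 3244 and 4720 in Mac and 6909 and 6935 in ECs. Ratios without cells of over 10% haemoglobin UMIs kept every member's call.

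Bases upstream of a start site are shown for 3 members, from the RefSeq promoter table (build GRCm38.p6, 5' to 3' on the gene's strand). They were searched for the letters of the receptor's own element. Capitals mark the receptor hexamer AGAACA on either strand, which reads TGTTCT when it lies on the opposite strand, and the palindrome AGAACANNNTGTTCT made of both. The first lies before the start of 1 of the 6 annotated Sgk1 windows (chr10:21993640-21993889, plus strand).
Sgk1: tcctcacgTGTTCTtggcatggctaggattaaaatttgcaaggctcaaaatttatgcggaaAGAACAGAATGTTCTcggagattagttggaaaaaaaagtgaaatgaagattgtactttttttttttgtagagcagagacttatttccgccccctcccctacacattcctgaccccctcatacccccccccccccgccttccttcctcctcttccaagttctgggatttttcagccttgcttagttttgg
The second lies before the most upstream of the 3 annotated Tsc22d3 windows (chrX:140600523-140600772, minus strand).
Tsc22d3: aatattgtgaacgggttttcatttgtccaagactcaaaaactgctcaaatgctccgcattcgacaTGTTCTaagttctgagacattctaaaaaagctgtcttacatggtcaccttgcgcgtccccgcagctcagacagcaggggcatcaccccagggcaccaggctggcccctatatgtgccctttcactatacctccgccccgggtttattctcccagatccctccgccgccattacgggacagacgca
The third lies before the only annotated Fkbp5 window (chr17:28486150-28486399, minus strand).
Fkbp5: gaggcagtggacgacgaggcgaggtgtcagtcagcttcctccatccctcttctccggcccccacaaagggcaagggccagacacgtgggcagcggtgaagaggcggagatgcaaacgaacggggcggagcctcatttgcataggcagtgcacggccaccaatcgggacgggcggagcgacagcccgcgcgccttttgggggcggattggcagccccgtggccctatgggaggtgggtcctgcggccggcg

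The Sgk1 stretch holds the full palindrome, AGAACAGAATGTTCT, whose first base lies 189 bases before the start, and a further TGTTCT that starts 242 bases before it. Among 32851 promoter windows of 300 bases in the table, the full palindrome occurred in 3 (0.00913%), and the other windows belonged to Acnat2 and Gm35041. The hexamer alone occurred in 19.0% of windows and the shorter core ACANNNTGT, which overlaps the palindrome, in 6.85%. Counted by gene, with every window of a gene, the shares of 27025 genes were 0.0111% for the palindrome, 21.3% for the hexamer and 7.90% for the core. Other Sgk1 windows also held matches: 1 hexamer each in chr10:21881934-21882233 and chr10:21991973-21992272, and 1 core in chr10:21978422-21978721. Tsc22d3 had 1 hexamer, 185 bases before the start shown, and none in its other windows, and Fkbp5 had none of these letters in its window. A match is a description of letters, and a window without one says nothing of elements elsewhere in the gene. Zbtb16 has no window shown, and the sequence of Nr3c1 is not shown.

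Tsc22d3 was lower in the diabetic library in endothelial cells and in the classes Fib-1 and Fib-2, at between 0.356 and 0.382 of the control level, while the receptor gene Nr3c1 was called in no class. Over the 35 pairs of a member and a class, 8 were called lower and 0 higher, where a call needs at least a 1.5-fold ratio and an exact 95% interval that excludes 1, among genes with at least 10 UMIs over both libraries. The 8 calls were Tsc22d3 in ECs, Fib-1, Fib-2 and VSMCs-2, Zbtb16 in Fib-3 and VSMCs-2, Fkbp5 in Mac and Sgk1 in VSMCs-1. Each group is 1 library, so no test was possible, nothing here was repeated, and every interval covers counting error only and leaves out the spread between mice. Of all genes tested the same rule called 3.24% lower and 4.11% higher in ECs, 3.92% and 2.76% in Fib-1, 3.69% and 5.19% in Fib-2, and 4.39% and 3.53% in Fib-3. It called 4.54% lower and 8.16% higher in Mac, 3.77% and 2.54% in VSMCs-1, 4.08% and 4.33% in VSMCs-2, and 9.55% and 8.48% in all annotated cells together. The members were chosen with these contrasts known, so nothing is read from their count against those shares.

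**Figure D1:**
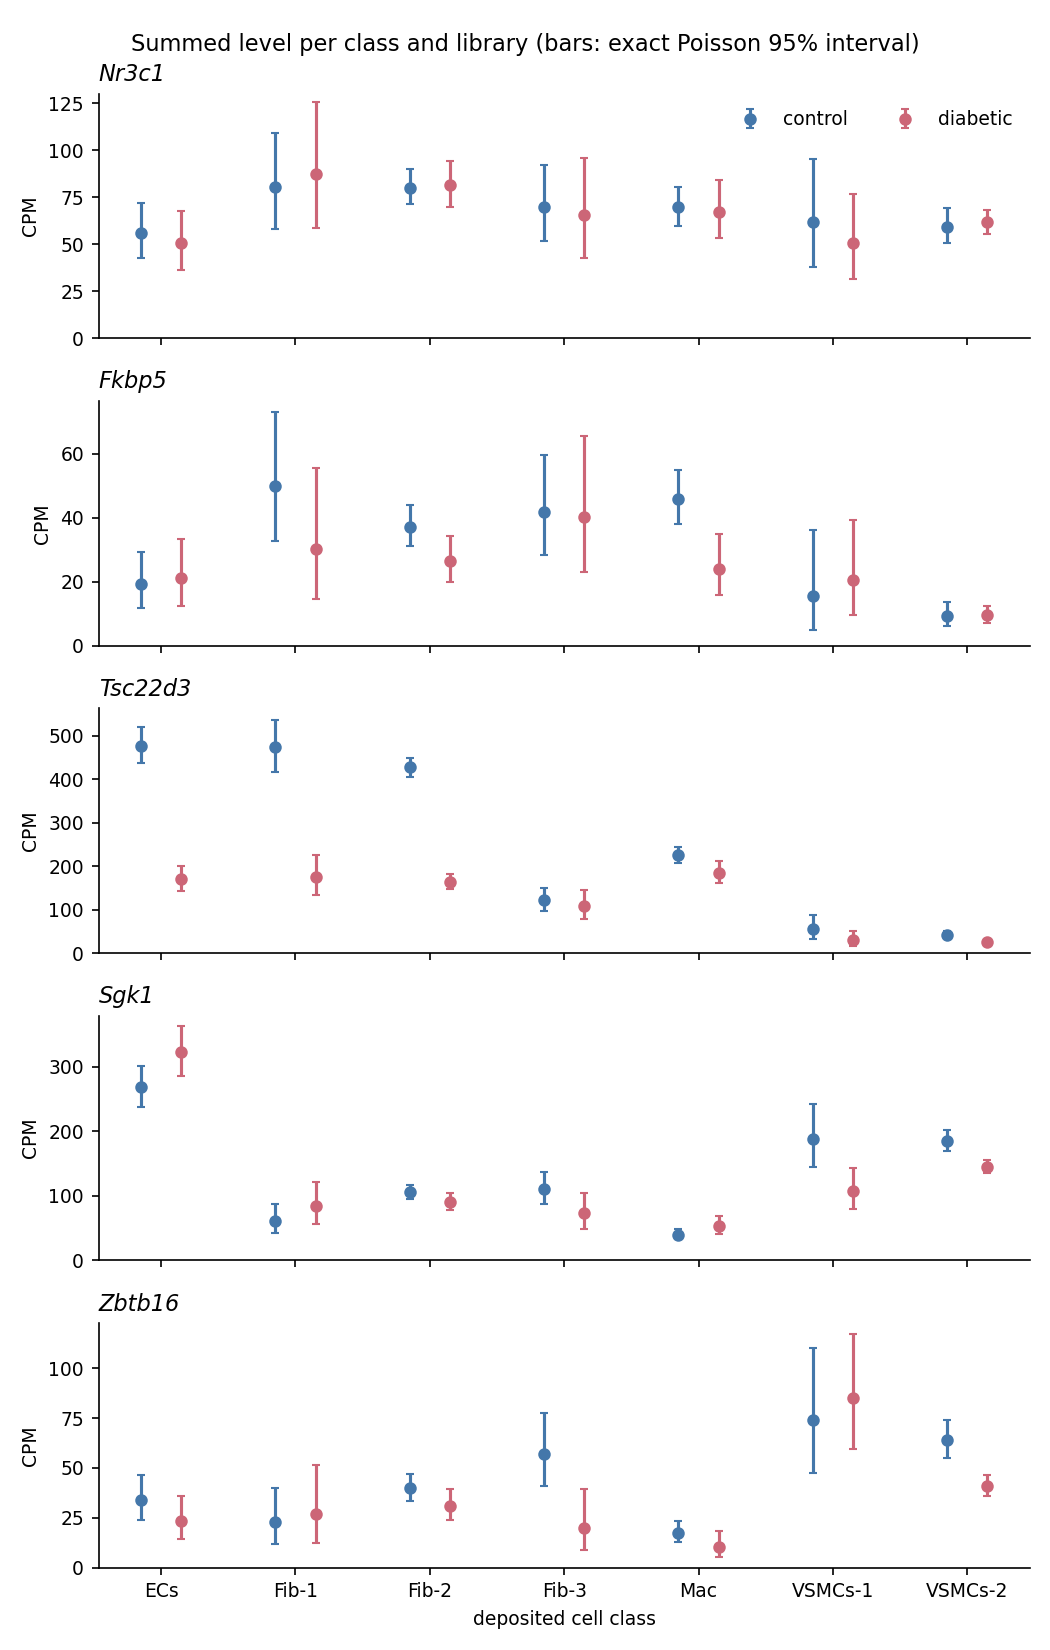
Level in CPM (vertical axis, linear, from 0) of each member in the 7 compared cell classes (horizontal axis), 1 point per library (blue control, red diabetic) with exact Poisson 95% intervals. Tsc22d3 stood at 477, 474 and 427 CPM in control ECs, Fib-1 and Fib-2 and at 170, 175 and 163 CPM in the diabetic ones, whereas Nr3c1 intervals overlapped in every class.

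**Figure D2:**
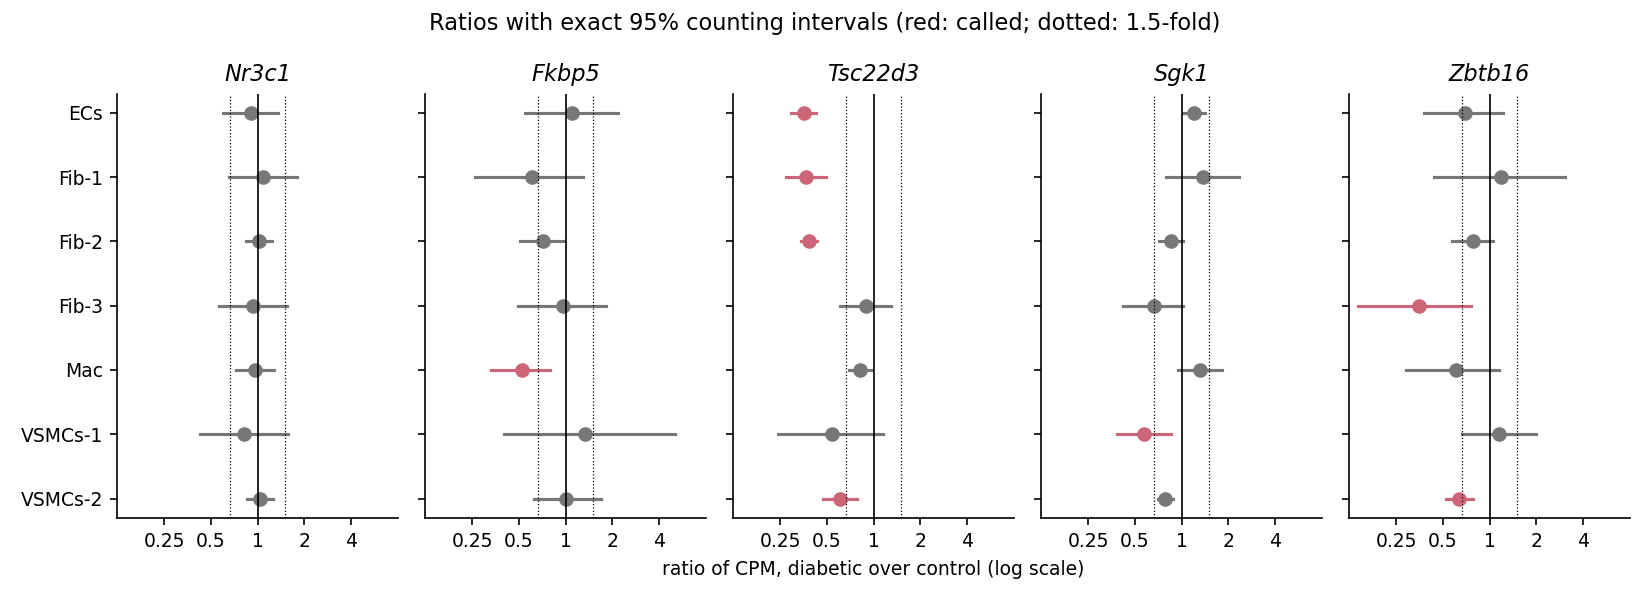
Ratio of diabetic over control CPM (horizontal axis, log scale) for each member by cell class, with exact 95% counting intervals. Red marks the 8 ratios called lower, dotted lines mark 1.5-fold either way, and Tsc22d3 lies near 0.37 in ECs, Fib-1 and Fib-2 but at 0.821 in Mac and 0.893 in Fib-3.

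Nr3c1 (ENSMUSG00000024431.15), which encodes the receptor itself and spans chr18:39410545-39519421 on the minus strand of GRCm38 (GENCODE M21 annotation, as for the genes below), varied less than 2-fold over the compared classes. Its control level lay between 55.8 CPM in ECs and 80.5 CPM in Fib-1, and its diabetic level between 50.4 CPM in ECs and 87.3 CPM in Fib-1. No neighbours in the order of levels differed beyond counting error in either library, and Fib-1 lay 1.44-fold above ECs in control cells, with an interval that held 1, and 1.73-fold (1.04 to 2.84) in diabetic cells. Ratios of diabetic over control ran from 0.817 (95% interval 0.425 to 1.58) in VSMCs-1 to 1.08 (0.651 to 1.78) in Fib-1. The narrowest intervals were those of Fib-2, with a ratio of 1.02 (0.837 to 1.23, from 291 and 172 UMIs), and VSMCs-2, with 1.04 (0.861 to 1.26, from 165 and 352 UMIs). These intervals hold differences of up to 1.26-fold. Thinned to 1000 UMIs per cell, VSMCs-2 kept 38 and 40 Nr3c1 UMIs and gave 0.610 (0.381 to 0.977), which is called lower. Over all annotated cells Nr3c1 stood at 68.3 CPM (control) and 65.8 CPM (diabetic), a ratio of 0.964 (0.874 to 1.06). Its highest level in any class of more than 20 cells was in the small NKT Cells class, with 234 CPM (139 to 369) in 32 control cells and 223 CPM (149 to 320) in 51 diabetic cells. Foam cells, lipid-laden macrophages, lay at the low end, with 7 UMIs in 35 control cells (27.5 CPM) and 1 UMI in 17 diabetic cells.

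Fkbp5 (ENSMUSG00000024222.17, chr17:28399094-28517527, minus strand) encodes an immunophilin co-chaperone that joins the receptor complex and lowers its affinity for hormone, so that its induction closes a feedback loop. Its level was low everywhere. In control cells it was highest in Fib-1 (49.8 CPM), Mac (45.9), Fib-3 (41.8) and Fib-2 (37.1), each within counting error of the next. Fib-2 lay 1.93-fold (1.21 to 3.22) above ECs (19.2), which were followed by VSMCs-1 (15.4) and VSMCs-2 (9.34). Diabetic macrophages held 23.9 CPM against 45.9 in control ones, a ratio of 0.521 (0.330 to 0.796, from 120 control and 27 diabetic UMIs). An Fkbp5 UMI was found in 20.6% of control and 10.9% of diabetic macrophages, and in 5.03% and 2.01% after each cell was thinned to 1000 UMIs, where 26 and 4 UMIs were left and the ratio of 0.384 (0.0974 to 1.11) was no longer called. The 5 macrophage markers summed to 26843 CPM in control and to 16908 CPM in diabetic macrophages, while T cell markers summed to 321 and 546 CPM, NK cell markers to 312 and 152 CPM (Ncr1 at 0 in diabetic cells) and B cell markers to 528 and 341 CPM. Without macrophages that held a T, NK or B cell marker UMI, a setting chosen after seeing the data that kept 165 and 77 cells, the ratio was 0.569 (0.105 to 2.01) from 15 and 3 UMIs and was not called, and the part of these markers in the result was not tested.

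In Fib-2 the Fkbp5 ratio was 0.713 (0.513 to 0.981), which excludes 1 but falls short of 1.5-fold. Fib-1 had a ratio of 0.604 from 26 and 10 UMIs and an interval of 0.260 to 1.29, while ECs, Fib-3, VSMCs-1 and VSMCs-2 had ratios between 0.964 and 1.34 with intervals that held 1. Summed over all annotated cells, Fkbp5 stood at 30.0 CPM (control) and 16.8 CPM (diabetic), a ratio of 0.560 (0.469 to 0.667). That sum also carries the different make-up of the libraries: with classes weighted alike the ratio was 0.745 (0.623 to 0.890) and was no longer called.

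Tsc22d3 (ENSMUSG00000031431.13, chrX:140539528-140600659, minus strand) encodes GILZ, a leucine zipper protein that binds inflammatory transcription factors and carries part of the anti-inflammatory action of glucocorticoids. It had the highest level of any class in control ECs, at 477 CPM (437 to 519), with Fib-1 at 474 and Fib-2 at 427 CPM within counting error of it. Control macrophages followed at 224 CPM, Fib-3 at 121 CPM, and VSMCs-1 and VSMCs-2 at 55.6 and 41.7 CPM. ECs thus lay 11.4-fold (9.34 to 14.1) above VSMCs-2 in the control library. In the diabetic library this order was lost at its top: Mac (184 CPM), Fib-1 (175), ECs (170) and Fib-2 (163) did not differ beyond counting error from the next in this order, Fib-2 lay 1.51-fold (1.09 to 2.12) above Fib-3, and the highest class lay 7.26-fold (5.85 to 9.04) above VSMCs-2.

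Diabetic ECs held 145 Tsc22d3 UMIs against 521 in control ECs, a ratio of 0.356 (0.294 to 0.429). Fib-1 held 58 against 247, a ratio of 0.369 (0.272 to 0.492), and Fib-2 held 345 against 1551, a ratio of 0.382 (0.339 to 0.430). All 3 classes were therefore at well under the control level, and their ratios did not differ from each other beyond counting error (ECs over Fib-2 0.932, 0.749 to 1.16). Of all genes tested, 150 of 9285 (1.62%) had a lower ratio in ECs, 282 of 7071 (3.99%) in Fib-1 and 272 of 11534 (2.36%) in Fib-2. Among other genes with at least as many UMIs as Tsc22d3 in the same class, these were 1 of 437, 0 of 408 and 0 of 455. Tsc22d3 was chosen with these contrasts known, so nothing is read from these ranks. No single cell carried the difference, since the richest held 17 of the 521 control and 8 of the 145 diabetic UMIs in ECs, and 21 of 1551 and 17 of 345 in Fib-2.

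Macrophages and Fib-3 differed less. Control macrophages held 224 CPM of Tsc22d3 and diabetic ones 184 CPM, a ratio of 0.821 (0.697 to 0.963) that is not called. Fib-3 held 87 and 43 UMIs (121 and 108 CPM), a ratio of 0.893 (0.605 to 1.30). The ratio in ECs was 0.434 of that in macrophages (0.341 to 0.553), that in Fib-2 0.466 of it (0.383 to 0.567), and that in Fib-2 0.428 of that in Fib-3 (0.292 to 0.628), so that these classes differed in their ratio by more than counting error, with no replicate behind the comparison. Without macrophages that held a T, NK or B cell marker UMI the macrophage ratio was 0.651 (0.422 to 0.974, from 131 and 30 UMIs), which is called lower. The cells kept were shallower, with medians of 2950 (control) and 1833 UMIs (diabetic), against 4506 and 4129 in all macrophages. Macrophages under 2000 UMIs had a ratio of 0.464 (0.185 to 1.08), those of 2000 to 4000 had 0.949 and deeper ones 0.840. The part of depth in this call was not tested.

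Smooth muscle held few Tsc22d3 transcripts. VSMCs-2 had 116 control and 145 diabetic UMIs (41.7 and 25.4 CPM), a ratio of 0.608 (0.473 to 0.783) that is called lower, and VSMCs-1 had 18 and 13 UMIs, a ratio of 0.536 (0.242 to 1.16). The 5 fibroblast markers, all detected, summed to 1007 CPM in control and 520 CPM in diabetic VSMCs-2. In the VSMCs-2 cells without a UMI of a fibroblast marker, 68 control and 112 diabetic cells, 7 and 21 UMIs of Tsc22d3 were left and the ratio turned to 1.58 (0.648 to 4.41), an interval that leaves the direction undecided in these cells. Leaving out the 5% of cells with most UMIs gave 0.685 in VSMCs-2, short of the 1.5-fold size.

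Macrophage markers were lower in the diabetic library in every compared class. The 5 macrophage markers summed to 276 CPM in control and 174 in diabetic ECs, 313 and 135 in Fib-1, 208 and 45.9 in Fib-2, 255 and 22.7 in Fib-3, 185 and 45.9 in VSMCs-1 and 124 and 28.5 in VSMCs-2, with Adgre1 at 0 in diabetic Fib-1, Fib-2 and Fib-3. Without cells holding any of these markers the Tsc22d3 ratio was 0.342 (0.274 to 0.424) in ECs, 0.370 (0.266 to 0.507) in Fib-1 and 0.398 (0.348 to 0.454) in Fib-2. In ECs 232 of 366 control and 194 of 228 diabetic cells were kept. Fib-1 kept 274 of 386 and 219 of 245 cells, and Fib-2 523 of 907 and 446 of 533. In ECs without a fibroblast marker UMI, 191 control and 159 diabetic cells, the Tsc22d3 ratio was 0.358 (0.280 to 0.453). A cell without such a UMI can still hold transcripts of other cells, and their part in these ratios was not tested.

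Depth per cell differed between libraries and classes, so shares of cells were compared after each cell was thinned to 1000 UMIs, which left out 175 control and 176 diabetic cells below that depth, among them 111 of 386 control and 92 of 245 diabetic Fib-1 cells. At this depth Tsc22d3 was detected in 35.6% (30.5 to 40.9) of control and 15.0% (10.6 to 20.4) of diabetic ECs, with 59.6% and 34.6% before thinning. Fib-1 gave 32.0% and 11.8% (35.5% and 17.6% unthinned), and Fib-2 31.5% and 15.2% (61.4% and 31.7% unthinned). Shares in macrophages were 16.9% and 14.1%, in Fib-3 12.8% and 13.4%, and in VSMCs-2 4.84% (3.12 to 7.11) and 2.57% (1.62 to 3.87). As a measure of free transcripts, barcodes with over 50% haemoglobin UMIs, which hold red cells, carried a Tsc22d3 UMI in 3 of 29 control and 1 of 487 diabetic cases, at a median of 156 and 208 UMIs from other genes. Outside haemoglobin genes this was 333 CPM (68.7 to 974) and 9.46 CPM (0.240 to 52.7), a ratio of 0.0284 (0.000541 to 0.354). It rests on 3 and 1 UMIs, fewer than the 10 that a call needs, and the part of free transcripts in the results was not tested. Cells with 3 or more Tsc22d3 UMIs made up 20.2% of control and 7.46% of diabetic ECs, and 24.1% and 7.32% of Fib-2, unthinned.

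**Figure D3:**
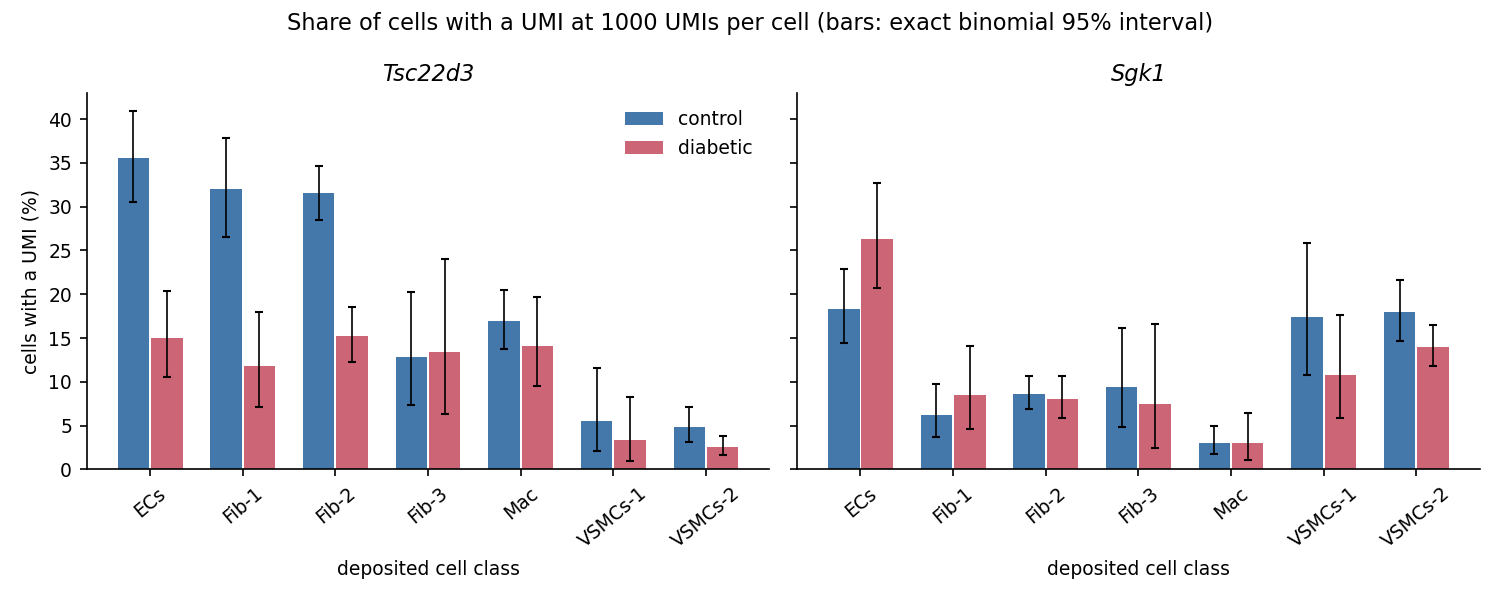
Share of cells with at least 1 UMI (vertical axis, percent, from 0) of Tsc22d3 (left) and Sgk1 (right) after each cell was thinned to 1000 UMIs, by cell class, blue for control and red for diabetic, with exact binomial 95% intervals. Tsc22d3 was found in 35.6% of control and 15.0% of diabetic ECs, whereas Sgk1 was found in 18.4% and 26.4%.

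Within ranges of depth the direction in ECs, Fib-1 and Fib-2 was the same. Among ECs of 2000 to 4000 UMIs Tsc22d3 stood at 527 CPM (179 control cells) and 232 CPM (104 diabetic cells), a ratio of 0.440 (0.336 to 0.570), and among those of 4000 or more UMIs at 389 and 137 CPM, a ratio of 0.353 (0.261 to 0.472). Fib-2 gave 0.383 (0.324 to 0.451) and 0.370 (0.310 to 0.439) in the same ranges, and Fib-1 cells under 2000 UMIs gave 0.444 (0.323 to 0.601). Over all annotated cells Tsc22d3 stood at 267 CPM (control) and 97.0 CPM (diabetic), a ratio of 0.363 (0.339 to 0.388), and with classes weighted alike the ratio was 0.503 (0.470 to 0.539).

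Lymphoid and other small classes also carried Tsc22d3, with too few cells for a comparison. Control T cells had 416 CPM (20 UMIs in 13 cells) and diabetic ones 319 CPM (62 UMIs in 60 cells), and B Cells had 341 and 320 CPM. NKT Cells had 286 and 261 CPM and MoDC, the class named as monocyte-derived dendritic cells, 166 and 153 CPM. Foam cells gave 307 and 189 CPM, but 49 of the 78 control UMIs came from 1 cell.

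Sgk1 (ENSMUSG00000019970.15, chr10:21882184-21999903, plus strand) encodes a kinase that is induced by glucocorticoids and by mineralocorticoids and that holds ion channels and transporters at the cell surface. Its order of classes was unlike that of Tsc22d3. ECs led in both libraries, with 268 CPM (238 to 301) among control and 322 CPM (285 to 362) among diabetic cells, and lay above the next class beyond counting error. Control VSMCs-1 and VSMCs-2 followed at 188 and 185 CPM, Fib-3 and Fib-2 at 110 and 106 CPM, Fib-1 at 61.4 CPM and Mac at 40.1 CPM. In diabetic cells VSMCs-2 came next at 145 CPM and VSMCs-1 at 108 CPM.

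Endothelial Sgk1 was thus not lower where Tsc22d3 was: 293 control and 275 diabetic UMIs gave a ratio of 1.20 (1.02 to 1.42), which excludes 1 and is short of 1.5-fold. ECs under 2000 UMIs gave 3.03 (1.62 to 5.73, from 21 and 24 UMIs) and those of 4000 or more gave 0.935 (0.729 to 1.20), so the ratio moved with depth. The share of ECs with a UMI at 1000 UMIs per cell was 18.4% (14.4 to 22.9) for control ECs and 26.4% (20.7 to 32.7) for diabetic ECs. VSMCs-1 had 61 control and 47 diabetic UMIs, a ratio of 0.572 (0.382 to 0.851) that is called lower. This call was lost on thinning (22 and 15 UMIs, 0.614) and without cells holding a macrophage marker UMI (36 and 41 UMIs, 0.636, 0.396 to 1.02), where the 5 markers summed to 185 CPM in control and 45.9 CPM in diabetic VSMCs-1 with Cd68 at 0 in control. VSMCs-2 had 515 and 829 UMIs, a ratio of 0.783 (0.701 to 0.876), and without cells holding a fibroblast marker UMI (76 and 48 UMIs) a ratio of 0.333 (0.227 to 0.485) that is called lower. The ratio in ECs was 1.53 times that in VSMCs-2 (1.26 to 1.87) and 2.10 times that in VSMCs-1 (1.39 to 3.18). Fib-3, with 79 and 29 UMIs, had a ratio of 0.663 (0.418 to 1.03) that is not called, and macrophages and Fib-1 had ratios of 1.32 and 1.37 with intervals that held 1.

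Zbtb16 (ENSMUSG00000066687.5, chr9:48654297-48836222, minus strand) encodes PLZF, a zinc finger repressor that is strongly induced by glucocorticoids in several tissues. Among the compared classes it was highest in smooth muscle, with 74.1 CPM in control and 84.8 CPM in diabetic VSMCs-1, and lowest in macrophages, with 17.6 and 10.6 CPM. Of the small classes, NKT Cells held 39.0 CPM (3 UMIs) in control and 53.8 CPM (7 UMIs) in diabetic cells. B Cells and T cells held 0 UMIs in both libraries. In the control library no neighbours in the order differed beyond counting error, although VSMCs-1 lay 4.22-fold (2.46 to 7.05) above Mac. Diabetic VSMCs-2 held 40.9 CPM against 64.0 in control cells, a ratio of 0.640 (0.524 to 0.782, from 178 and 234 UMIs) that is called lower, while VSMCs-1 had a ratio of 1.14 and an interval that held 1. Diabetic VSMCs-1 thus lay 2.07-fold (1.42 to 2.94) above diabetic VSMCs-2. The VSMCs-2 value was 0.717 (0.549 to 0.943) without cells holding a macrophage marker UMI and 0.696 (0.402 to 1.22) without cells holding a fibroblast marker UMI, and neither is called. Fib-3 held 41 control and 8 diabetic UMIs (57.1 and 20.1 CPM), a ratio of 0.353 (0.143 to 0.762). After thinning 7 and 2 UMIs were left there and the call was lost. ECs, Fib-1, Fib-2 and Mac had ratios between 0.604 and 1.18, each with an interval that held 1.

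Other genes known to be induced by glucocorticoids were called in both directions. Of the 30 in the list, each counted once per class with at least 10 UMIs, 12 of 160 pairs were called higher and 10 lower, and 69 had a ratio below 1. Of all genes tested, 2.54% to 8.16% were called higher and 3.24% to 4.54% lower by class. In ECs 4 of 23 of the list were called higher and 1 lower, where 4.11% and 3.24% of all genes were. The list's median log2 ratio was 0.30 against -0.01 over all genes tested in that class. Higher in ECs were Dusp1, a phosphatase that switches off MAP kinases (253 and 392 CPM, 1.55, 1.32 to 1.82), Cdkn1a, the cell cycle inhibitor p21 (354 and 552 CPM, 1.56), Errfi1, an inhibitor of EGF receptor signalling (1.99, from 18 and 28 UMIs), and Lcn2 (1.57). Fam107a alone was lower there (121 and 51.5 CPM, 0.427, 0.296 to 0.604). Klf9 and Per1, 2 direct targets of the receptor that were singled out after their values were seen, were called in no class, with Klf9 ratios between 0.739 and 1.35 over 7 classes and Per1 ratios between 0.753 and 1.12 over 6.

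In fibroblasts the calls of the list were near the shares over all genes. Fib-1 had 1 of 21 called higher (Cebpb, 1.72) and 0 lower, and Fib-2 2 of 28 higher and 1 lower, where 2.76% and 3.92% of all genes in Fib-1 and 5.19% and 3.69% in Fib-2 were called higher and lower. Their lists had median log2 ratios of 0.07 and 0.27 against -0.07 and 0.03 over all genes. The Fib-2 calls were the metallothioneins Mt1 (3929 and 7028 CPM, 1.79, 1.75 to 1.83) and Mt2 (1711 and 3307 CPM, 1.93), which bind zinc and also respond to metals, and Lcn2, lower at 0.0658 (0.0261 to 0.138) with 49 of its 183 control UMIs in 1 cell. Fib-3 had Cebpd higher (1.85) and Glul, glutamine synthetase, lower (0.543).

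Macrophages had 1 of 25 higher and 3 lower, with Arrdc3 at 3.17 and Mertk, an efferocytosis receptor, at 0.474, Sult1a1 at 0.386 and Glul at 0.628. VSMCs-1 had 1 of 16 each way, Cdkn1a at 1.57 and Glul at 0.562. VSMCs-2 had 2 of 27 higher, Mt1 (1.52) and Mt2 (1.56), and 3 lower, Pdk4 (0.657), Angptl4 (0.346, 0.221 to 0.538) and Lcn2, of whose UMIs 185 of 196 in control and 107 of 115 in diabetic cells came from 1 cell each. Of all genes, 8.16% were called higher and 4.54% lower in macrophages, 2.54% and 3.77% in VSMCs-1, and 4.33% and 4.08% in VSMCs-2. Glul was the 1 gene of the list called lower in 3 classes, and 14 of the 29 tested were called in none. How often either holds over all genes was not counted, so nothing is read from these counts.

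**Figure D4:**
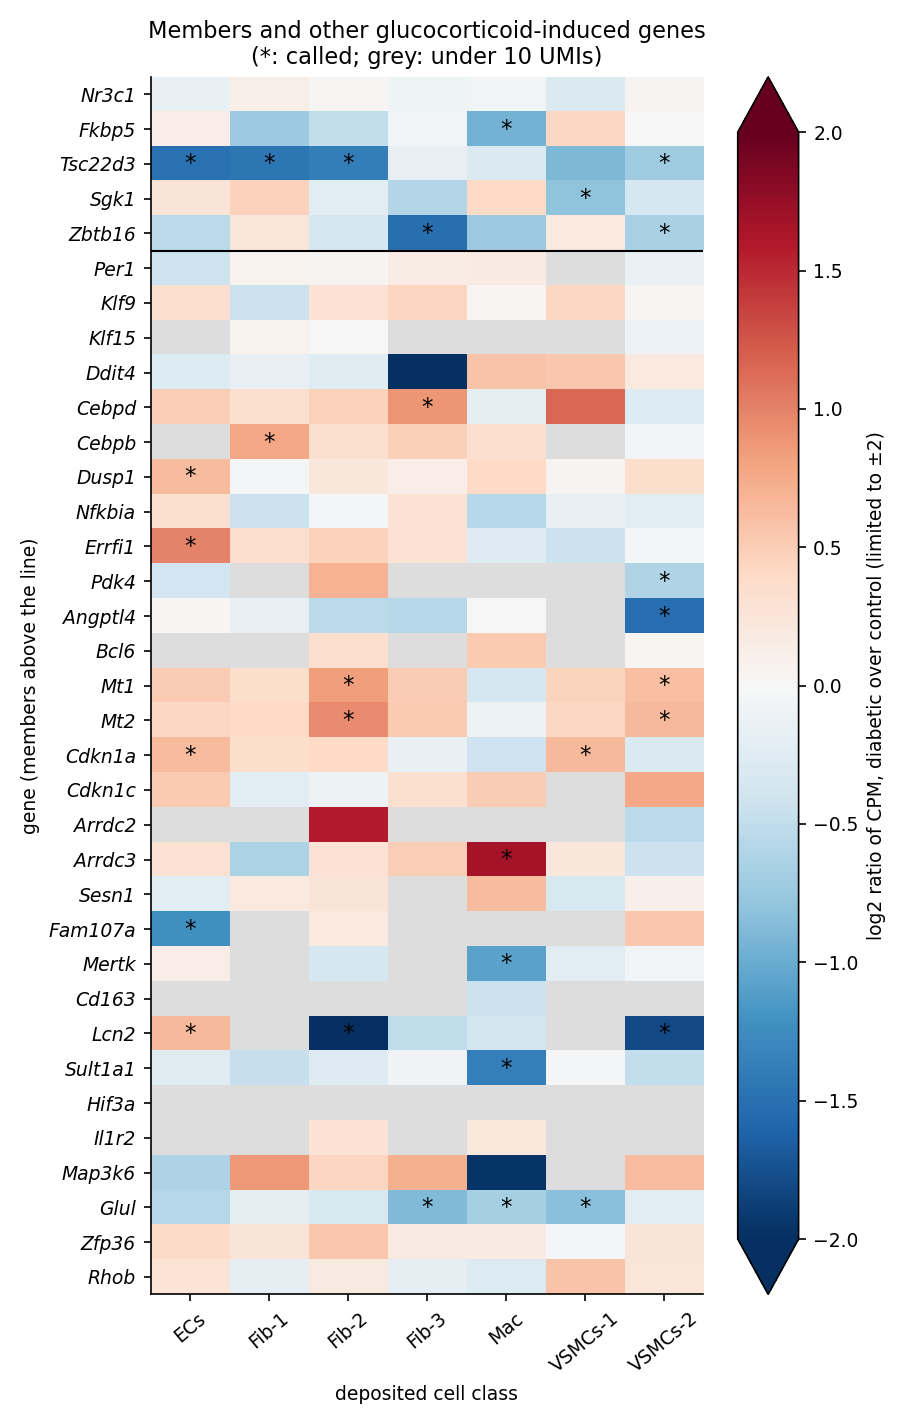
Log2 ratio of diabetic over control CPM (colour, limited to 2 either way) of the 5 members, above the line, and 30 other glucocorticoid-induced genes, below it, in the 7 compared classes. Asterisks mark calls and grey marks fewer than 10 UMIs, and in the columns of ECs, Fib-1 and Fib-2, where Tsc22d3 was called lower, Fam107a in ECs and Lcn2 in Fib-2 were the genes below the line called lower.

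Relatives of Tsc22d3 were measured beside it. Tsc22d1, another leucine zipper gene of the family, stood at 645 CPM in control and 547 CPM in diabetic ECs (0.848, 0.753 to 0.954) and at 264 and 216 CPM in Fib-2 (0.818, 0.730 to 0.916), and at 150 and 99.3 CPM in Fib-1 (0.664, 0.428 to 1.01), and was called in no class. Tsc22d4 had ratios of 0.775 in ECs, 1.05 in Fib-1 and 0.813 in Fib-2, none of them called. Tsc22d2 was called higher in Fib-1 (23 and 35 UMIs, 2.39, 1.37 to 4.23) and had 1.21 in ECs and 1.06 in Fib-2. No relative was called lower in these 3 classes. Fkbp4, the paralogue of Fkbp5 that favours receptor transport, was called in no class, with 0.932 (0.611 to 1.39) in macrophages and 0.751 (0.573 to 0.977) in Fib-2.

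Enzymes and receptors that set the exposure to hormone were detected unevenly. Hsd11b1, which regenerates active glucocorticoid from its inactive form, was a fibroblast transcript, with 389 and 394 CPM in Fib-1 and 478 and 469 CPM in control and diabetic Fib-2, a ratio there of 0.981 (0.906 to 1.06). In macrophages it was called lower (33 and 5 UMIs, 0.351, 0.107 to 0.904) and in VSMCs-2 too (18 and 11 UMIs, 0.297, 0.127 to 0.665). Nr3c2, the mineralocorticoid receptor, which also binds glucocorticoids, had 35 control and 50 diabetic UMIs in all annotated cells, and its ratio was 0.711 (0.187 to 2.36) in ECs and 1.41 (0.669 to 3.25) in VSMCs-2. Hsd11b2, which inactivates glucocorticoid, had 3 and 2 UMIs in all. H6pd, which supplies Hsd11b1 with its cofactor, was called higher in Fib-3 (12 and 22 UMIs, 3.31).

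Chaperones of the receptor complex were called lower most often in smooth muscle, with 6 of 18 lower and 0 higher in VSMCs-1 and 6 lower and 1 higher in VSMCs-2. Of all genes, 3.77% and 4.08% were called lower in these classes. Median log2 ratios of the chaperones were -0.57 and -0.26 against 0.01 and 0.01 over all genes. In VSMCs-2 the chaperones called lower included Hspa8 (4128 and 2448 CPM, 0.593, 0.578 to 0.608), Hsp90aa1 (0.621), Stip1, which bridges both chaperones (0.583), and St13 (0.609), with Stub1 higher (1.59). In VSMCs-1 the lowest included Hspa8 (0.479), Stip1 (0.388) and St13 (0.498). The other classes had between 0 and 3 of 18 lower and between 2 and 4 higher, the latter with the heat-inducible Hspa1a (2.35 in Fib-1) and Dnajb1 (1.92 in Fib-1 and 2.05 in Fib-3) among them. Receptor coregulators were called in 5 of 93 pairs, 4 higher and 1 lower, near the shares of all genes, of which 2.54% to 8.16% were called higher and 3.24% to 4.54% lower by class. Nrip1 in macrophages was 1 of them (2.61, 1.83 to 3.72). Partners of Sgk1 were called in 4 of 49 pairs, 3 higher and 1 lower, beside the same shares of all genes. The 3 higher were among 8 tested in macrophages, where 8.16% of all genes were called higher. They were Pdpk1, the kinase that activates Sgk1 (1.69), Rictor (2.06) and the substrate Ndrg1 (2.13).

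Inflammatory genes that glucocorticoids are known to repress were called in 35 of 70 pairs, 18 higher and 17 lower, and the direction differed by class. Of all genes, 2.54% to 8.16% were called higher and 3.24% to 4.54% lower by class. Higher in ECs were Icam1, a leukocyte adhesion molecule (389 and 616 CPM, 1.58, 1.39 to 1.80), Cxcl1 (121 and 225 CPM, 1.86, 1.48 to 2.34), Cxcl10 (3.72, from 11 and 32 UMIs) and Ptgs2 (2.42, from 9 and 17 UMIs), with Ccl7 and Mmp3 lower (0.384 and 0.256). Fib-2 had 4 of 12 higher and 0 lower, with Il6 at 1.74 (1.57 to 1.93), Ccl7 at 1.78 and Ptgs2, the inducible cyclooxygenase, at 1.99 (1.68 to 2.36), while Mmp13 (18.0) had 40 of its 42 diabetic UMIs in 1 cell. Fib-1 had Ccl2 (2.22), Ccl7 (2.12) and Il6 (1.63) higher and Mmp3 lower (0.594). Macrophages had 2 of 14 higher, Il1b (1.65) and Il6 (2.32, with 16 of 23 diabetic UMIs in 1 cell), and 5 lower, among them Vcam1 (0.377) and Cxcl1 (0.426). VSMCs-2 had 8 of 11 lower and 1 higher, among the lower Ccl7 (0.149), Vcam1 (0.294) and Ccl2 (0.329). Macrophage and fibroblast marker sums were lower in the diabetic library in this class, as in every other compared class. Their part in these calls was not tested.

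Patterns over classes and libraries were compared by Pearson's correlation of log2(CPM + 10) over 14 points, 7 classes in each of the 2 libraries, which share libraries and depth, and over 8447 genes. Closest to Tsc22d3 were Glmp (0.959), H2-T23 (0.946), H2-M3 (0.908), Hfe (0.907) and Mrps33 (0.903). Glmp stood at 229 CPM in control and 160 CPM in diabetic ECs and at 197 and 143 CPM in Fib-2, a smaller difference than that of Tsc22d3. Among the closest to Fkbp5 were Man2a1 (0.933), Marcks, Tmem50a and Lgals3bp (0.866). Sgk1 came nearest to Sypl (0.947), Clu, Rit1, Apmap and Cdh13 (0.928), and Zbtb16 to Bag2 (0.907), Etfrf1, Fuz, Psmb5 and Ddx47 (0.890). Nr3c1 came nearest to Tiam1 (0.927), Pramef8, Gfra2, Htra2 and Tnfsf13b (0.909). No member was among the 5 closest genes of another. Tsc22d3 correlated at 0.65 with Fkbp5, which ranked 354 of 8447 for it, at -0.20 with Sgk1 and at -0.58 with Zbtb16. Fkbp5 correlated at -0.65 with Sgk1 and -0.46 with Zbtb16, and Sgk1 at 0.48 with Zbtb16. Nr3c1 correlated at 0.57 with Fkbp5, 0.47 with Tsc22d3, -0.62 with Sgk1 and -0.34 with Zbtb16. Within single cells at 1000 UMIs, Tsc22d3 and Sgk1 were both found in 21 of 343 control ECs, where the product of their shares gives 22.4, and in 7 of 220 diabetic ECs, where it gives 8.70.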

How the data were processed

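Single-cell libraries of pooled aortic cells, 1 control and 1 diabetic, were analysed. Values in the deposited matrices are raw counts of UMIs for each gene and cell barcode. The submitters' processing notes name Cell Ranger 3.1.0, Partek (no version) and mm10, and neither the annotation release nor the barcode filter is given in the sources used here. Cell classes are the authors' own, from a deposited table, and barcodes without a class, including 2 with a blank one, were left out of comparisons. Aortae were digested for an hour at 37 °C, and cells were incubated again and sorted for viability, per the labels' protocols.

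UMIs were summed per library and class and scaled to CPM. CPM have exact Poisson intervals, shares exact Clopper-Pearson intervals and ratios exact conditional binomial intervals (95%), all covering counting error only. Intervals of a ratio between 2 classes use a normal approximation on the log scale. A count of 0 has a floor of 3 UMIs. Members and gene lists were chosen with earlier results of these data known. Named were all members and, per list and class, up to 4 called genes whose interval lay farthest from 1 and up to 2 called the other way, with the 5 genes of most similar pattern among those with at least 200 UMIs, of which 1 is not reported here. Fkbp4, Hsd11b1, Nr3c2 and the TSC22 family were named whether called or not. Alternatives were trimmed mean scaling (edgeR 4.0.16), other totals, equal weight per cell, thinning to 1000 UMIs (seed 1), other size rules and minimums, and removal of single cells, of the deepest 5% or of cells with markers of other types. No doublet caller was run, and the removal of the deepest cells does not replace one. The interval rule was run on simulated Poisson counts, the model that the intervals assume. This checks the calculation only, since the simulation holds no clumping of UMIs in single cells and no spread between mice. Python 3.11.15, numpy 2.4.6, pandas 2.3.3, scipy 1.17.1 and R 4.3.3 were used.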

Additional observations from a re-analysis of the deposited data

How the results depend on the processing

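No paired analysis was possible because there is 1 library per group. Tsc22d3 was called lower under each of 9 alternatives of scaling, weighting and cells in ECs (ratios 0.330 to 0.371) and under each of 8 in Fib-1 (0.295 to 0.528) and Fib-2 (0.369 to 0.412). Its ratio in VSMCs-2 turned from 0.608 to 1.58 without cells holding a fibroblast marker UMI, and the cause was not tested. With the interval alone as the rule, 1 member was called higher (Sgk1 in ECs) and 11 lower in place of 8, adding Fkbp5 in Fib-2, Tsc22d3 in Mac and Sgk1 in VSMCs-2, and with a 2-fold size rule 4 were called lower. Nr3c1 in VSMCs-2 had 0.610 (38 and 40 UMIs) after thinning, against 1.04, and Sgk1 in Fib-3 was called lower under 3 of 8 alternatives (0.550 to 0.606). Trimmed mean scaling moved log2 ratios in macrophages by -0.12 and kept every member's call. Thinning left few UMIs and moved uncalled ratios of Nr3c1 in Fib-3 to 0.327 (16 and 3 UMIs) and of Zbtb16 in Fib-1 to 2.88 (5 and 8 UMIs). Removal of cells with marker UMIs and the ranges of depth were added after seeing the data. Depth limits Fkbp5 and Zbtb16 most, which rest on as few as 5 and 8 UMIs per class and library, and the spread between mice could not be measured.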

Other observations

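Clock genes, several of which answer to glucocorticoids as well as to time of day, were measured in the same classes, and the hour of collection is not given in the sources used here. Of 83 pairs of a clock gene and a class 7 were called higher and 7 lower, where 2.54% to 8.16% of all genes were called higher and 3.24% to 4.54% lower by class. Arntl, the activator of the clock, was called higher in ECs (3 and 10 UMIs, 4.27), Fib-1 (4 and 13 UMIs, 5.10), macrophages (32 and 32 UMIs, 2.32, 1.37 to 3.90) and VSMCs-2 (16 and 66 UMIs, 2.01, 1.15 to 3.71). Dbp, an output gene of the clock, was called lower in Fib-1 (21 and 2 UMIs, 0.150, 0.0170 to 0.612), Fib-2 (156 and 50 UMIs, 0.551, 0.392 to 0.762) and macrophages (27 and 3 UMIs, 0.257). The part of collection time in the values of the members was not tested.

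Barcodes without a class also held Tsc22d3. Those with 3000 or more genes, 73 control and 114 diabetic, stood at 170 and 99.8 CPM outside haemoglobin genes, a ratio of 0.587 (0.478 to 0.720), and Fkbp5 in them at 38.7 and 24.9 CPM, a ratio of 0.644 (0.419 to 0.991). Those with over 10% mitochondrial UMIs, 150 and 324, had a Tsc22d3 ratio of 0.411 (0.242 to 0.699) and an Sgk1 ratio of 0.406 (0.226 to 0.727). Their cell types are unknown, and they come from the same 2 libraries.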
